A study of Mus musculus with 8 samples.

Results

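The C-type lectin genes named Clec were examined in tumour-infiltrating dendritic cells for how open their chromatin was, and for whether it differed between an early and a late tumour. Members were all protein-coding genes of the mouse mm10 assembly whose symbol starts with Clec, with Clec9a left out because it is a defining gene of the cells studied. That gave 32 of 21896 protein-coding genes. The cells were type 1 conventional dendritic cells (cDC1s) of wild type mice, sorted from tumours of B16-OVA, mouse melanoma cells engineered to make the antigen ovalbumin. Tumours were taken at day 7 (4 libraries) or day 21 (4 libraries) after inoculation, and no other treatment is named for either group. Time and tumour stage therefore cannot be told apart. The labels number the libraries of a day but do not say that they came from separate mice, so the spread that the p-values rest on may be technical. The assay was ATAC-seq, in which a transposase cuts and tags open DNA. The table held 128057 regions, with totals of 9440223 to 16063736 counts per library at day 7 and 14021151 to 27737040 at day 21.

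C-type lectins share a fold that, in many members, binds sugars with the help of calcium. On dendritic cells and macrophages they act as receptors for fungal and bacterial walls, for damaged cells and for glycoproteins of the host. Activating members signal through the kinase Syk, directly or through adaptor chains, and on to Card9 and NF-kB. Inhibitory members carry a tail motif that recruits phosphatases such as Ptpn6 (SHP-1). The Clec2 subfamily is different, since several of its proteins are ligands for receptors of the Nkrp1 (Klrb1) family on natural killer cells. Many of these genes lie on chromosome 6, and most of the Clec2 genes there are interspersed with Klrb1 receptor genes.

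Openness was measured in 2 ways for each gene. Gene-end regions overlapped the 1000 bp on each side of either annotated end, and their counts were summed. Distal regions lay outside every such window, had this gene's end as the nearest of any protein-coding gene, and lay within 50 kb of it. Values are CPM, counts scaled to the library's total, and a log2 difference is day 21 minus day 7. Nearly all members had a region at an end or assigned nearby. Regions of both kinds were found for 20, Clec1a had gene-end regions only, 10 had distal regions only, and Clec14a had no region. Distal regions were assigned by distance alone, so they do not show that the gene itself was open. The 10 with distal regions only were Clec4f, Clec4b2, Clec4n, Clec2g, Clec2f, Clec2e, Clec4g, Clec18a, Clec3a and Clec3b. Every member that had a region passed the filter on low counts, so 21 members were tested at their ends and 30 in distal regions. Of the 21, 11 had a region at 1 end only and 10 at both ends.

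Levels per kb of region gave the order of openness at gene ends. Clec11a, a secreted growth factor of bone marrow, was the most open member at 87.0 CPM per kb, higher than or equal to 96.7% of all genes with a gene-end region. Clec2d followed at 73.6 CPM per kb (percentile 93.7), then Clec4a2 at 35.4 (68.0), Clec16a at 32.1 (63.4) and Clec12a at 29.8 (59.8). At the other end stood Clec4e at 5.54 CPM per kb (12.3), Clec1a at 4.85 (9.80) and Clec10a at 3.78 (5.40). The Clec11a region, at chr7:44304719-44305724, lay inside the gene body and entered the window of the transcription end only at its edge. The promoter window of Clec11a overlapped no region. RefSeq promoters (250 bases before to 50 after the start, assembly GRCm38.p6, the same as mm10) were listed for 25 of the 32 members. In 15 of the 25 the promoter overlapped a region, and in 10 (Clec4f, Clec4a2, Clec4b2, Clec2g, Clec2e, Clec2m, Clec11a, Clec4g, Clec18a and Clec14a) it overlapped none.

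**Figure D1:**
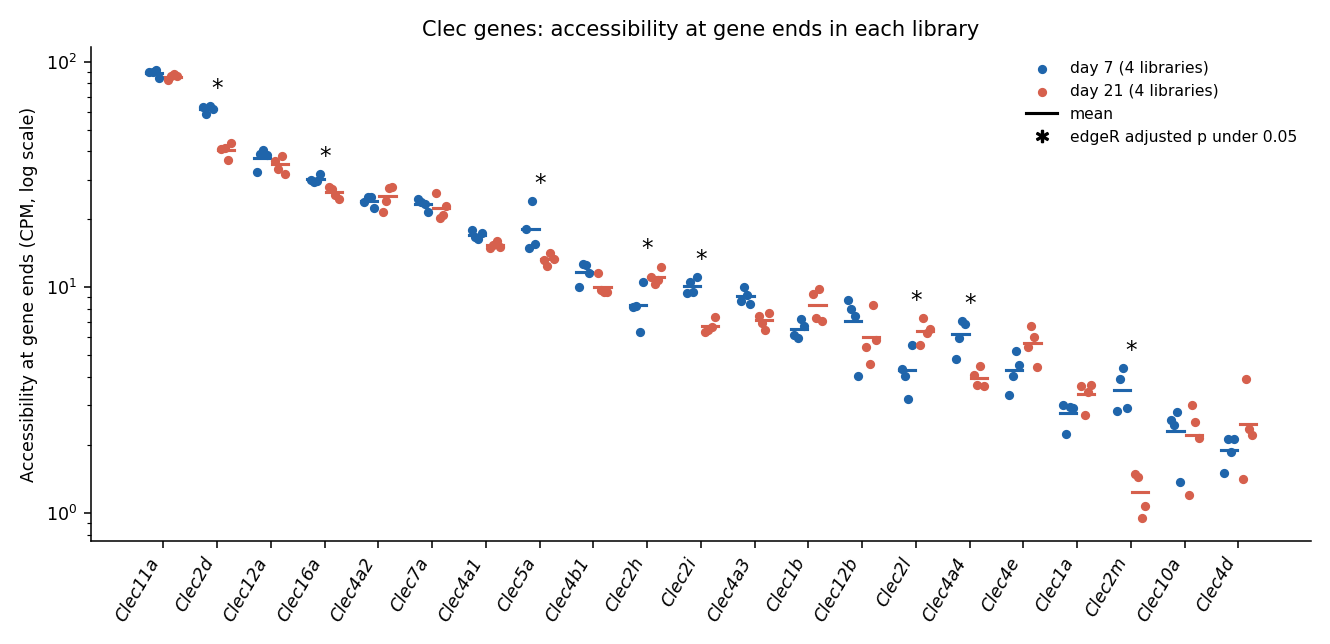
Gene-end accessibility of the 21 members with a region at an end, in CPM on a log axis, with 1 point per library and a bar at each day's mean. Clec2d separates the days without overlap, whereas Clec11a does not.

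At their ends, 2 members rose (Clec2l and Clec2h) and 6 fell (Clec5a, Clec4a4, Clec2i, Clec2d, Clec2m and Clec16a), while 13 did not pass the test (edgeR quasi-likelihood test, Benjamini-Hochberg adjusted p under 0.05 over all 13569 genes tested). Among all genes tested, 6.71% rose and 24.6% fell, together 31.3%. The members' shares were 9.52% and 28.6%, both within 5 percentage points of that background. The median log2 difference was -0.11 over the 21 members and -0.09 over all genes. Gene ends held 37.9% to 39.3% of a library's counts at day 7 and 36.1% to 36.6% at day 21. With offsets that follow the level of accessibility, the split over all genes was 1627 higher and 1646 lower, the members' split was 2 and 5, and the members' median was 0.00302. Days did not overlap in 1 member that was higher and 8 that were lower at day 21, where 5.95% and 20.6% of all genes did so.

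In distal regions, 2 members rose (Clec2h and Clec12b), 10 fell and 18 did not pass. The 10 were Clec5a, Clec4a1, Clec4n, Clec2g, Clec2f, Clec2d, Clec2m, Clec12a, Clec7a and Clec16a. The direction differed from the table as a whole, in which 18.3% of 14488 genes rose and 11.4% fell, together 29.7%. With offsets that follow the level of accessibility, the whole table was balanced, with 2163 genes higher and 2166 lower, and the members' split was again 2 and 10. The members' shares in the first fit were 6.67% and 33.3%. Their median was -0.12, against 0.04 over all genes. Days did not overlap in 3 members higher at day 21 and 7 lower, where 16.5% and 10.5% of all genes did so. Of the 20 members tested in both ways, 5 were called in both and in the same direction, namely Clec2h higher and Clec5a, Clec2d, Clec2m and Clec16a lower, and 0 were called in opposite directions. Distal regions share no region with the gene ends of the same gene, but many lie in the same few clusters, so members are not independent of one another.

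**Figure D2:**
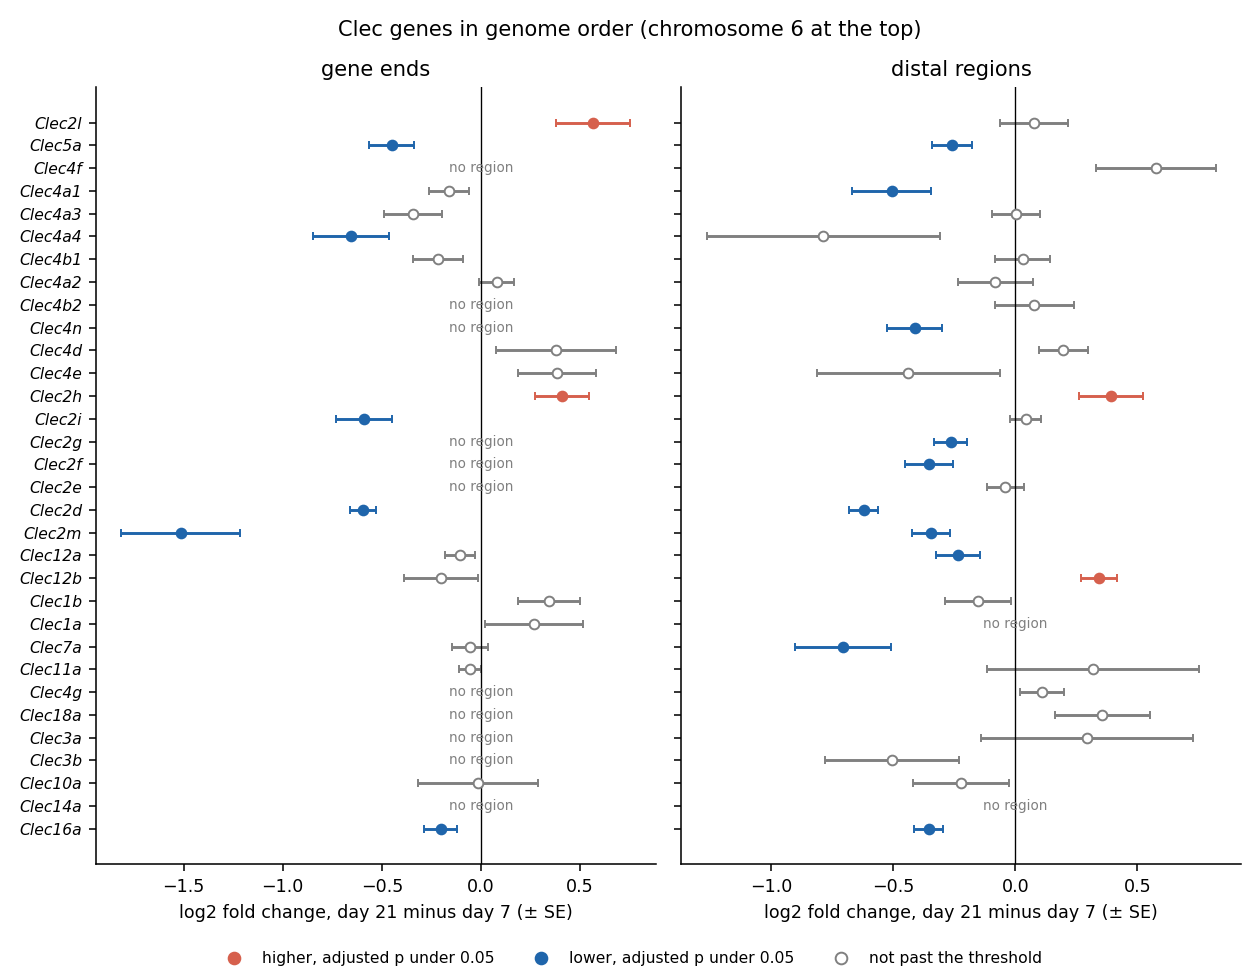
Log2 difference in accessibility, day 21 minus day 7, with its standard error for each member, at gene ends and in distal regions, coloured by call. Lower calls outnumber higher ones in both, 6 to 2 at ends and 10 to 2 in distal regions. Among all genes tested, 24.6% were lower and 6.71% higher at ends, and 11.4% were lower and 18.3% higher in distal regions.

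Clec2d encodes Clr-b, a surface protein that natural killer cells sense through the inhibitory receptor Nkrp1b. It was the member with the smallest adjusted p in both measures. Its only gene-end region, chr6:129180314-129181009, covers the transcription start. It had 62.6, 58.3, 63.5 and 62.0 CPM in day 7 replicates 1 to 4, and 41.1, 41.5, 36.6 and 43.6 CPM in those of day 21. The groups did not overlap, and every day 21 library was lower. The log2 difference was -0.59 ± 0.07 (SE), adjusted p = 1.05e-10 by the edgeR quasi-likelihood test. Its 13 distal regions had 94.1, 95.7, 90.4 and 96.1 CPM at day 7 and 66.2, 55.5, 61.5 and 61.7 CPM at day 21. Again every day 21 library lay below every day 7 library. Here the log2 difference was -0.62 ± 0.06 (SE), adjusted p = 1.58e-13.

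The Clec2i gene encodes Clr-g, a ligand of the receptor Nkrp1f. Its 2 gene-end regions had 9.39, 10.5, 9.53 and 11.1 CPM at day 7 and 6.33, 6.44, 6.66 and 7.40 CPM at day 21. The days did not overlap, and the log2 difference was -0.59 ± 0.14 (SE), adjusted p = 0.00107 (edgeR). With windows of 2000 bp, which take in more regions, it was -0.09 with an adjusted p of 0.33. The 7 distal regions of Clec2i, with 62.4, 64.5, 62.6 and 57.8 CPM at day 7 and 58.4, 63.8, 66.8 and 64.7 CPM at day 21, overlapped between days. Their log2 difference was 0.04 ± 0.06 (SE), adjusted p = 0.655.

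Clec2h encodes Clr-f, a ligand described for gut epithelium, and was the only member higher at day 21 in both measures. The region at its start had 8.14, 8.29, 6.32 and 10.6 CPM at day 7 and 11, 10.3, 10.8 and 12.3 CPM at day 21. Day 7 replicate 4 reached into the day 21 range. The gene-wise fit gave a log2 difference of 0.41 ± 0.14 (SE), adjusted p = 0.0171 (edgeR), and the adjusted p was 0.118 without day 7 replicate 3 and 0.0912 without day 21 replicate 4. Its distal regions had 8.39, 10.4, 7.76 and 8.95 CPM at day 7 and 13.2, 10.6, 11.3 and 11.4 CPM at day 21. Those values did not overlap. On the log2 scale the difference was 0.39 ± 0.13 (SE), adjusted p = 0.0183, and it missed the threshold without day 7 replicate 3 (0.0739) or day 21 replicate 1 (0.0679).

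Clec2m had 1 gene-end region, chr6:129320885-129321196, at its transcription end and outside the gene. It had 2.82, 3.93, 4.38 and 2.92 CPM at day 7 and 1.48, 1.44, 0.943 and 1.07 CPM at day 21. The level was low in all libraries and the days did not overlap. The log2 difference of -1.52 ± 0.30 (SE), adjusted p = 7.8e-05 (edgeR), was the largest in size among the 21 members tested at their ends. It rests on 1 region near the edge of the 1000 bp window. With windows of 2000 bp, which take in more regions, it was -0.33 with an adjusted p of 0.0139. Its distal regions had 37.5, 41.4, 47.8 and 42.8 CPM at day 7 and 33.0, 35.0, 30.9 and 34.5 CPM at day 21, also without overlap. That log2 difference was -0.34 ± 0.08 (SE), adjusted p = 0.00032.

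No gene-end region was found for Clec2g, Clec2f or Clec2e. The 12 distal regions of Clec2g had 52.3, 62.5, 61.2 and 63.7 CPM at day 7 and 52.4, 45.6, 50.5 and 51.1 CPM at day 21. The groups touched at day 7 replicate 1, which lay just below day 21 replicate 1. The log2 difference was -0.26 ± 0.07 (SE), adjusted p = 0.0015 (edgeR). For Clec2f, the values were 21.9, 22.6, 25.2 and 23.2 CPM at day 7 and 19.1, 15.3, 20.2 and 18.2 CPM at day 21. These did not overlap, with a log2 difference of -0.35 ± 0.10 (SE), adjusted p = 0.00366. The distal regions of Clec2e did not pass the test, at 40.2 ± 1.29 CPM (SD, n = 4) at day 7 and 39.0 ± 3.64 at day 21. Clec2l lies apart from the other Clec2 genes, in another part of chromosome 6. Its gene-end region had 4.32, 4.04, 3.20 and 5.53 CPM at day 7 and 5.55, 7.28, 6.25 and 6.51 CPM at day 21. The days were separated by a narrow gap. The gene-wise fit gave a log2 difference of 0.57 ± 0.19 (SE), adjusted p = 0.0154 (edgeR), but the adjusted p was 0.0859 without day 7 replicate 3 and 0.0616 without day 21 replicate 2.

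The starts of the members with the smallest p at gene ends are printed here from RefSeq (GRCm38.p6), 5′ to 3′ on the gene's strand, so that the letters can be read beside the values. Clec14a is added as the member with no region. The transcription start is base 251 of each line. Capitals mark matches, on either strand, to the letters searched: AP-1 (TGA and TCA around 1 free base), PU.1 (GAGGAAGT), ETS-IRF (GGAA and GAAA around 2 free bases), ISRE (GAAA and GAAA around 2 free bases), RUNX (TGTGGT) and NF-kB (GGGA and CC around 4 free bases). ETS-IRF and ISRE letters can overlap each other.
Clec2d, chr6:129180365-129180664, plus strand: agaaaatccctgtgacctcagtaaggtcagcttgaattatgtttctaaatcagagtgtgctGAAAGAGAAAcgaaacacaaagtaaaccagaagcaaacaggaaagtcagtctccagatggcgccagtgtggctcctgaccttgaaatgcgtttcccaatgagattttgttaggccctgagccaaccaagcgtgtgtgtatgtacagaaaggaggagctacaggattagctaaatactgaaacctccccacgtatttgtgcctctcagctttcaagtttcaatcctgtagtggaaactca
Clec2i, chr6:128887340-128887639, plus strand: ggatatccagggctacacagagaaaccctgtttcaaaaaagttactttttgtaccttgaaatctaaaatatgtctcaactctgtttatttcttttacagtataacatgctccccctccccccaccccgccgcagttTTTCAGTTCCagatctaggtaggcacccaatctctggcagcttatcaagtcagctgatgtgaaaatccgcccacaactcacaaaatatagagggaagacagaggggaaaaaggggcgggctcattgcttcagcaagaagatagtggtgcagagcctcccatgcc
Clec5a, chr6:40585756-40586055, minus strand: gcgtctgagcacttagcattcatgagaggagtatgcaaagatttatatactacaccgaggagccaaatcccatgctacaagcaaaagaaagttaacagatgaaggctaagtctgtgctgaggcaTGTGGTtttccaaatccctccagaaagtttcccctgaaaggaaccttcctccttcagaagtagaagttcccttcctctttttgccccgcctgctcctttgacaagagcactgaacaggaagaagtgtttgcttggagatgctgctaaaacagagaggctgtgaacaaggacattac
Clec2m, chr6:129331732-129332031, minus strand: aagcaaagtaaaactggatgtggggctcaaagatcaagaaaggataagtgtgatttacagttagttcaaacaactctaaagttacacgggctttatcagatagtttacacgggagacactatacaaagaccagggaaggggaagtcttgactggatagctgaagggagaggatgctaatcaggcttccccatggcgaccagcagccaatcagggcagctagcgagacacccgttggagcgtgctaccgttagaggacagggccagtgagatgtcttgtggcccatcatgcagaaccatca
Clec14a, chr12:58269209-58269508, minus strand: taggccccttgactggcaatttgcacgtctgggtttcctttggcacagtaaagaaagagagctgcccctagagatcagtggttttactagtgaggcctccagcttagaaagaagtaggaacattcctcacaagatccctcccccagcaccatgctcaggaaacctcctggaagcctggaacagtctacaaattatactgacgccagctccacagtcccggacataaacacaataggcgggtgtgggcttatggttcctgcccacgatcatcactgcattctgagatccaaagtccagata
The Clec2d window lies inside its open region and holds 1 ISRE match, GAAAGAGAAA, 189 bases before the start. The Clec2i window holds an ETS-IRF match on the other strand, TTTCAGTTCC, beginning 114 bases before the start. The Clec5a window has a RUNX match, TGTGGT, 126 bases before the start. Neither the Clec2m nor the Clec14a window holds any of these letters or overlaps a region. Among the 25 members listed, AP-1 letters were found in 6, ETS-IRF in 3, ISRE in 3, RUNX in 6, NF-kB in 4 and PU.1 in 0. Of all 32851 promoter windows, 7.81% held the AP-1, 2.72% the ETS-IRF, 3.44% the ISRE, 16.8% the RUNX, 20.7% the NF-kB and 3.2% the PU.1 letters.

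The Clec2 genes from Clec2h to Clec2m lie in 1 cluster with Clec12a, Clec12b, Clec1b, Clec1a and Clec7a. This cluster spans chr6:128662385-129472785, which is 810.4 kb, and holds 12 members among 19 protein-coding genes (Clec9a and Klrb1 genes are among the others). Of its 144 regions 139 were tested, and 10 rose and 29 fell, or 7.19% and 20.9% (edgeR, adjusted over all 121955 regions). Over all regions tested 9.49% rose and 9.85% fell, together 19.3%. The 78 regions at or nearest to members summed to 553.3 to 588.5 CPM at day 7 and 465.7 to 519.2 CPM at day 21, so the days did not overlap. The 66 regions of other genes in the same cluster summed to 707.9 to 768.0 CPM at day 7 and 684.7 to 770.8 CPM at day 21, and those ranges did overlap. Lower calls were about as frequent in both sets, at 16 of 75 tested regions of members (21.3%) and 13 of 64 of other genes (20.3%). Higher calls were 3 (4.0%) for members and 7 (10.9%) for other genes. The median log2 difference was -0.24 for members and -0.26 for other genes, so the falls were not particular to members.

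The falls were not spread evenly along the cluster. From Clec2d to Clec2m, 15 of the 30 regions tested fell (50.0%) and 0 rose, and 29 of the 30 had a log2 difference below 0, with a median of -0.60. Of the same 30 regions, 0 were higher at an unadjusted p under 0.05, and 0 rose by DESeq2 or by limma-voom. On the left, from Clec2h to Clec2e, 6 of 70 rose and 11 fell, with a median of -0.26. On the right, from Clec12a to Clec7a, 4 of 30 rose and 2 fell, with a median of -0.02. These 3 stretches were chosen after their values were seen and carry no test of their own. The gene Cd69, another lectin-domain receptor, lies in the middle stretch, and its gene-end regions went from 13.6 ± 1.96 CPM (SD, n = 4) to 8.35 ± 1.00 (log2 difference -0.69 ± 0.13, adjusted p = 3.33e-05).

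Single regions within the cluster moved more than the sums. The region chr6:129202359-129202687, nearest to Clec2d and 16 kb from its end, went from 3.17 ± 0.765 CPM (SD, n = 4) to 0.480 ± 0.285 (log2 difference -2.74 ± 0.37, adjusted p = 4.11e-08 by edgeR). A second region, chr6:129156784-129157611, 23.4 kb before the Clec2d start, went from 7.16 ± 0.331 to 2.88 ± 0.189 CPM (-1.31 ± 0.19, adjusted p = 1.76e-07). All day 7 libraries exceeded all day 21 libraries in both. In the other direction, chr6:129434150-129434685 went from 31.8 ± 2.51 to 44.4 ± 5.95 CPM (0.48 ± 0.08, adjusted p = 8.29e-06). That region lies in the body of Clec1a but is nearest to the annotated end of Clec12b, and the days did not overlap. The other higher regions that met the naming rule had larger p-values: the region at the Clec2h start (0.41 ± 0.14, adjusted p = 0.0304) and one 1.27 kb beyond Clec2i at chr6:128899269-128899607 (0.650 ± 0.355 to 1.55 ± 0.190 CPM, 1.24 ± 0.41, adjusted p = 0.0248). Each of these 2 missed the threshold in 5 of 14 alternatives, most of them with a single library left out, with adjusted p up to 0.168 and 0.0813.

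**Figure D3:**
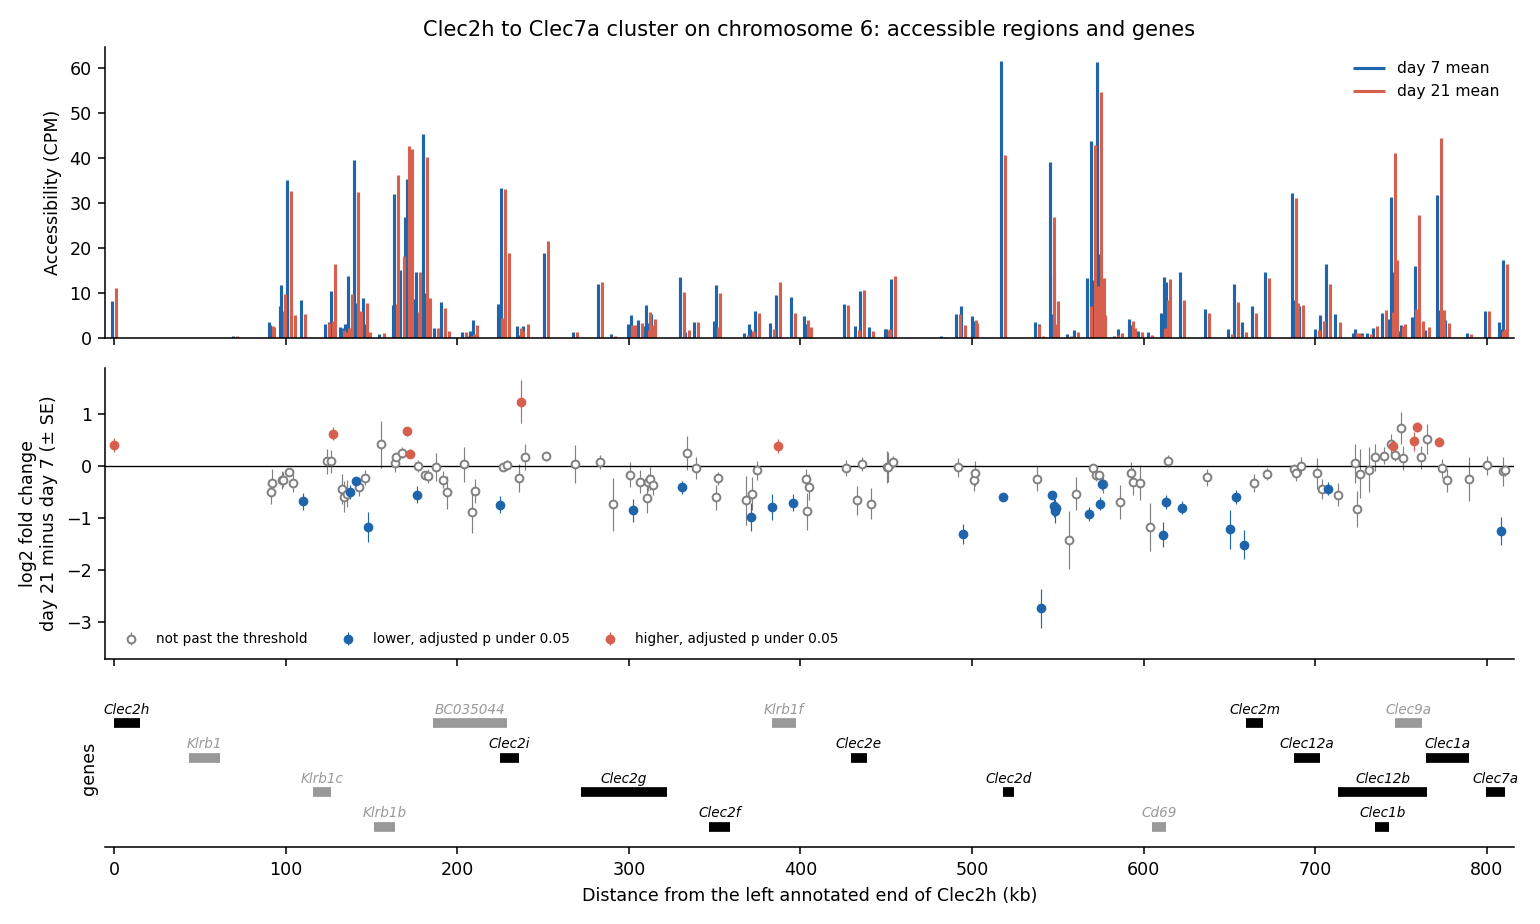
Accessibility along the chromosome 6 cluster from Clec2h to Clec7a, as mean CPM of each region by day, with the log2 difference of each region below it and the position in kb from the left end of Clec2h. The run of lower regions lies between Clec2d and Clec2m, and the tallest region near the right end, at 772.03 kb, is higher at day 21.

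Among the activating receptors, Clec7a (dectin-1, the receptor for fungal beta-glucan) was open at its ends with little difference between days. It had 24.7, 23.9, 23.4 and 21.5 CPM at day 7 and 26.0, 20.2, 20.8 and 22.8 CPM at day 21, which overlapped. On the log2 scale the difference was -0.06 ± 0.09 (SE), adjusted p = 0.686 (edgeR). Its 2 distal regions had 5.81, 4.89, 5.57 and 5.96 CPM at day 7 and 3.73, 2.53, 3.77 and 3.63 CPM at day 21. All 4 day 21 libraries were lower there. The log2 difference of -0.71 ± 0.20 (SE), adjusted p = 0.0039, held in all 16 alternatives run.

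Clec4n (dectin-2, which binds fungal mannans and signals through the Fc receptor gamma chain) had no gene-end region. Its 3 distal regions had 17.4, 14.7, 17.2 and 18.6 CPM at day 7 and 12.7, 11.1, 14.4 and 13.1 CPM at day 21. The days did not overlap, and every day 21 library was lower. The log2 difference was -0.41 ± 0.11 (SE), adjusted p = 0.00321 (edgeR). The largest of the 3, chr6:123244188-123244643, lies inside the gene and went from 9.33 ± 1.24 to 6.51 ± 0.290 CPM (SD, n = 4).

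Clec4e (Mincle) and Clec4d (MCL), which pair to sense mycobacterial glycolipid, had small gene-end regions. For Clec4e the values were 3.32, 4.04, 5.23 and 4.54 CPM at day 7 and 5.41, 6.74, 6.01 and 4.45 CPM at day 21. For Clec4d they were 1.5, 2.12, 1.85 and 2.11 CPM at day 7 and 1.41, 3.91, 2.36 and 2.21 CPM at day 21. Days overlapped in both genes. Neither passed, with log2 differences of 0.38 ± 0.20 (SE), adjusted p = 0.128 for Clec4e, and 0.38 ± 0.30 (SE), adjusted p = 0.354 for Clec4d (edgeR). The distal regions of Clec4d had 23.7, 19.4, 20.7 and 18.0 CPM at day 7 and 18.8, 25.6, 27.0 and 22.1 CPM at day 21, with wide overlap. Their log2 difference was 0.20 ± 0.10 (SE), adjusted p = 0.139, and 0.28 with an adjusted p of 0.0271 without day 21 replicate 1. The single distal region of Clec4e, at 1.54 ± 0.553 CPM (SD, n = 4) at day 7 and 1.13 ± 0.558 at day 21, did not pass.

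Clec5a (MDL-1, an activating receptor coupled to Tyrobp in myeloid cells) lies outside the clusters. Its gene-end regions had 18.1, 15, 24.0 and 15.5 CPM at day 7 and 13.2, 12.4, 14.2 and 13.3 CPM at day 21. Day 7 replicate 3 stood highest, and the days did not overlap. The gene-wise fit gave a log2 difference of -0.45 ± 0.11 (SE), adjusted p = 0.00159 (edgeR), with an adjusted p of 0.0663 without day 7 replicate 3. Most of the difference lay at the transcription end, where chr6:40573572-40574112 went from 13.5 ± 3.69 to 9.51 ± 0.546 CPM (-0.49 ± 0.14, adjusted p = 0.00575). With the transcription start end alone, the adjusted p was 0.215. In distal regions, the values were 39.5, 32.8, 35.8 and 34.2 CPM at day 7 and 33.8, 27.7, 26.1 and 31.3 CPM at day 21. These overlapped, since day 21 replicate 1 was above day 7 replicate 2. On the log2 scale the difference was -0.26 ± 0.08 (SE), adjusted p = 0.0131, and the adjusted p was 0.0859 without day 7 replicate 1.

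Clec4b1 (DCAR, coupled to the Fc receptor gamma chain) had 9.97, 12.6, 12.5 and 11.6 CPM at day 7 and 11.5, 9.69, 9.55 and 9.5 CPM at day 21 at its gene end. The days overlapped and the gene did not pass (log2 difference -0.22 ± 0.13 (SE), adjusted p = 0.195). Its 8 distal regions did not pass either, at 14.9 ± 1.35 and 15.2 ± 1.78 CPM (SD, n = 4). For its neighbour Clec4b2, only distal regions were found, at 6.52 ± 1.19 and 6.83 ± 0.731 CPM.

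Among the inhibitory receptors, Clec4a2 (DCIR, with an inhibitory tail motif) had the most open gene end of its cluster. It had 23.8, 25.2, 25.0 and 22.4 CPM at day 7 and 21.4, 24.0, 27.6 and 27.9 CPM at day 21. The day 21 libraries spread more widely and enclosed the day 7 values. The log2 difference was 0.08 ± 0.09 (SE), adjusted p = 0.533 (edgeR). Clec4a4 (DCIR2, a marker of the cDC2 lineage in spleen) had 4.82, 5.95, 7.08 and 6.90 CPM at day 7 and 4.08, 3.67, 4.48 and 3.63 CPM at day 21. There the days did not overlap. Its log2 difference of -0.65 ± 0.19 (SE), adjusted p = 0.00649, held in all 17 alternatives run. Clec4a1 and Clec4a3 are neighbours in the same cluster and are not classed here as inhibitory. At their ends every day 21 library was lower, but neither passed, with adjusted p of 0.231 and 0.0631. For Clec4a3 the gene-end values were 9.11 ± 0.678 CPM (SD, n = 4) at day 7 and 7.13 ± 0.528 at day 21. The distal regions of Clec4a1 had 7.72, 6.80, 8.43 and 8.26 CPM at day 7 and 5.62, 4.15, 6.78 and 5.51 CPM at day 21. The gap between the days was narrow. The gene-wise fit gave a log2 difference of -0.51 ± 0.16 (SE), adjusted p = 0.0129 (edgeR), with an adjusted p of 0.0737 without day 21 replicate 2.

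Clec12a (MICL, an inhibitory receptor for uric acid crystals of dead cells) was open at both ends. It had 32.3, 38.9, 40.4 and 38.5 CPM at day 7 and 36.4, 33.5, 38.2 and 31.9 CPM at day 21. The groups overlapped and the log2 difference was -0.10 ± 0.08 (SE), adjusted p = 0.311 (edgeR). Its distal regions had 33.2, 34.2, 35.2 and 34.4 CPM at day 7 and 28.9, 21.9, 35.4 and 30.1 CPM at day 21. Day 21 replicate 3 was above every day 7 library, while the other day 21 libraries were below them. The log2 difference of -0.23 ± 0.09 (SE), adjusted p = 0.039, passed narrowly and was lost in 7 of 16 alternatives. Without day 21 replicate 2 the adjusted p was 0.301.

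The inhibitory receptor gene Clec12b was higher in its distal regions, with 42.1, 38.9, 45.5 and 46.1 CPM at day 7 and 53.9, 50.6, 66.9 and 49.0 CPM at day 21. The days did not overlap, and the log2 difference was 0.34 ± 0.08 (SE), adjusted p = 0.00024 (edgeR). Its 4 distal regions were dominated by the region inside Clec1a described above. The region at the RefSeq promoter of Clec12b, chr6:129385485-129385771, had 1.14 ± 0.214 CPM (SD, n = 4) at day 7 and 1.19 ± 0.141 at day 21. Gene-end regions of Clec12b did not pass, at 7.06 ± 2.09 and 6.03 ± 1.61 CPM.

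The second chromosome 6 cluster runs from Clec4a1 to Clec4e at chr6:122921848-123289871, which is 368.0 kb, and all of its 9 protein-coding genes are members. It held 37 regions, all tested, of which 3 fell (8.11%) and 0 rose (edgeR), where 9.85% and 9.49% of all regions tested did so. At an unadjusted p under 0.05, 2 were higher, and 0 rose by DESeq2 or by limma-voom. The summed accessibility was 165.5 to 175.8 CPM at day 7 and 155.5 to 174.8 CPM at day 21, which overlapped. It was sparser than the Clec2h to Clec7a cluster, with 10.1 regions per 100 kb against 17.8, and a median region of 2.96 CPM against 4.40. The most open regions, at the Clec4a2 end (chr6:123123053-123123750) and before Clec4a3 (chr6:122946680-122947176, 17.6 ± 2.80 to 19.2 ± 2.1 CPM), did not pass. The 3 lower ones were the Clec4a4 end, the region inside Clec4n and chr6:122972428-122973123, beyond Clec4a3. The last went from 3.81 ± 0.425 to 2.11 ± 0.786 CPM (-0.85 ± 0.25, adjusted p = 0.0106), and its adjusted p was 0.0748 without day 21 replicate 2. Genes of both clusters have close relatives beside them, and the sources used here do not give how the authors treated reads that match several copies.

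**Figure D4:**
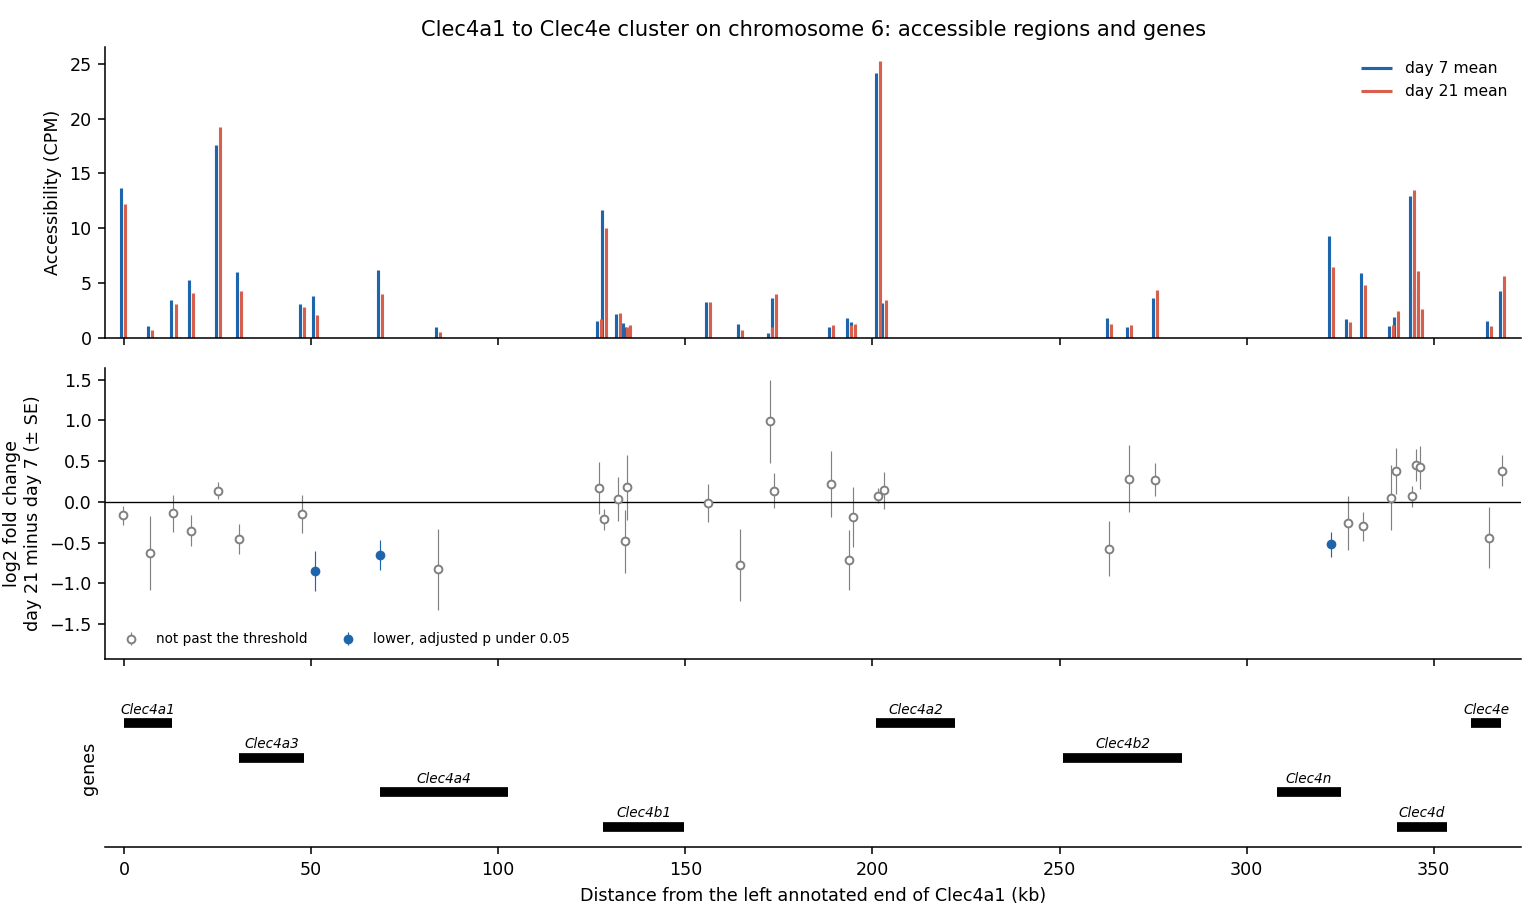
Accessibility along the chromosome 6 cluster from Clec4a1 to Clec4e, as mean CPM of each region by day, with the log2 difference below and the position in kb from the left end of Clec4a1. The 2 tallest regions, at 25.08 and 201.55 kb, overlap between days, and 3 smaller ones are lower at day 21.

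Clec16a stands apart by function, as it encodes an intracellular protein of endosomes and mitophagy rather than a surface receptor. Its gene-end regions had 30.0, 29.3, 29.4 and 31.8 CPM at day 7 and 27.7, 27.3, 25.5 and 24.6 CPM at day 21. The days did not overlap, but the log2 difference of -0.20 ± 0.08 (SE), adjusted p = 0.0476 (edgeR), was lost in 11 of 18 alternatives. With offsets that follow the level, it was -0.10 with an adjusted p of 0.373. The 18 distal regions had 93.8, 88.4, 92.6 and 80.1 CPM at day 7 and 71.1, 73.2, 68.7 and 64.8 CPM at day 21. These were clearly separated, with every day 21 library lower. On the log2 scale the difference was -0.35 ± 0.06 (SE), adjusted p = 2.48e-06, and with distal regions limited to 20 kb it was -0.16 with an adjusted p of 0.11.

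Single regions in and after Clec16a went both ways, with 3 higher and 7 lower among its 3 gene-end and 18 distal regions. One inside the gene, chr16:10566549-10566986, went from 10.4 ± 2.24 to 2.01 ± 0.731 CPM (SD, n = 4), a log2 difference of -2.41 ± 0.20 (adjusted p = 7.38e-15 by edgeR). It was chosen for mention after its values were seen. To its left, chr16:10562435-10563038 went from 9.63 ± 2.03 to 13.5 ± 0.648 CPM (0.50 ± 0.13, adjusted p = 0.00397). Over all members, 7 of the 166 single regions tested rose and 29 fell, or 4.22% and 17.5%, with a median log2 difference of -0.15. Among all regions tested, 9.49% rose and 9.85% fell. Days did not overlap in 11 regions higher at day 21 and 30 lower, where 9.99% and 9.79% of all regions did so.

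Of the other members, none passed in either measure. Clec1b (CLEC-2, a receptor for podoplanin on platelets and some myeloid cells) had 6.15, 5.95, 7.25 and 6.71 CPM at day 7 and 9.28, 7.28, 9.79 and 7.08 CPM at day 21 at its ends. Day 7 replicate 3 lay just above the lowest day 21 library, and the log2 difference was 0.34 ± 0.16 (SE), adjusted p = 0.0857 (edgeR). With windows of 2000 bp, which take in more regions, it was 0.39 with an adjusted p of 3.86e-05. Clec10a (MGL1, a receptor for galactose-type sugars and a marker of cDC2s in humans) had 2.58, 2.44, 2.78 and 1.37 CPM at day 7 and 1.2, 3.01, 2.54 and 2.13 CPM at day 21. The values overlapped fully, with a log2 difference of -0.01 ± 0.30 (SE), adjusted p = 0.979. For Clec11a, the values were 90.2, 89.5, 92.0 and 84.7 CPM at day 7 and 83.1, 86.0, 87.8 and 86.0 CPM at day 21. They too overlapped, with a log2 difference of -0.05 ± 0.06 (SE), adjusted p = 0.492. Clec1a (CLEC-1, of endothelial and myeloid cells) had 2.77 ± 0.363 CPM (SD, n = 4) at day 7 and 3.36 ± 0.451 at day 21 at its ends, 1 of its 2 regions being shared with Clec12b.

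The remaining distal-only genes ranged widely in openness per kb. Clec18a was at 16.1 CPM per kb (percentile 76.0 of all genes with a distal region) and Clec4g at 11.7 (60.1), while Clec4f was at 4.90 (17.4), Clec3b at 4.66 (15.2) and Clec3a at 3.66 (6.79). In summed CPM, Clec4f, a gene of liver Kupffer cells, had 2.33 ± 0.473 CPM (SD, n = 4) at day 7 and 3.47 ± 0.307 at day 21. The days did not overlap, but the adjusted p was 0.0672. Clec3b (tetranectin, a plasminogen-binding protein) had 2.92 ± 0.604 and 2.04 ± 0.484 CPM, Clec18a 3.93 ± 0.691 and 5.07 ± 0.354, and Clec3a 0.773 ± 0.318 and 0.962 ± 0.249. Clec4g (LSECtin, of liver sinusoidal endothelium) had 6 distal regions at 23.4 ± 1.43 and 25.3 ± 1.29 CPM. Clec14a, an endothelial gene, had no region at its ends and no distal region assigned to it. Regions assigned to other genes may still lie within 50 kb of it.

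The partners of these receptors were read from lists drawn from general knowledge. For each list count here and below, the background is all genes tested. Of these, 6.71% rose and 24.6% fell at gene ends, and 18.3% rose and 11.4% fell in distal regions. Of 25 genes of C-type lectin signalling, 3 rose at their ends (Syk, Prkcd and Inpp5d), 3 fell (Fcer1g, Rel and Relb) and 19 did not pass, with a median of -0.02. Syk, the kinase that activating members use, went from 22.1 ± 3.77 to 31.2 ± 2.73 CPM (SD, n = 4), a log2 difference of 0.50 ± 0.09 (adjusted p = 2.14e-05, edgeR). Fcer1g, the chain used by Clec4n and Clec4e, went from 23.0 ± 4.64 to 19.1 ± 2.93 CPM (-0.27 ± 0.10, adjusted p = 0.0376). In distal regions 9 of 24 rose, among them Syk and Inpp5d, and 4 fell (Fcer1g, Vav1, Ptpn6 and Src), with a median of 0.01. Syk rose and Fcer1g fell in both measures. Tyrobp, the chain used by Clec5a, did not pass in either, at 37.0 ± 0.782 and 37.1 ± 2.58 CPM at its ends (0.01 ± 0.07, adjusted p = 0.948) and 24.3 ± 3.13 and 26.1 ± 1.93 CPM in distal regions (0.12 ± 0.09, adjusted p = 0.372).

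Other receptors with lectin domains showed no common direction. At their ends 4 of 17 rose (Cd207, Asgr2, Cd302 and Thbd) and 2 fell (Ly75 and Cd69), and in distal regions 1 of 21 rose (Olr1) and 4 fell (Mrc1, Cd69, Cd302 and Selp). The killer cell lectin-like receptors, most but not all of which lie on chromosome 6 near the Clec2 genes, formed another list. Of these, 3 of 15 rose at their ends (Klrb1c, Klrk1 and Klri2) and 3 fell (Klrb1f, Klrc2 and Klrg1), and 6 of 23 rose and 3 fell in distal regions. Klrb1b, which encodes the receptor for the Clec2d protein, was among those that rose in distal regions (0.14 ± 0.05, adjusted p = 0.0384). It did not pass at its ends (0.15 ± 0.08, adjusted p = 0.129, edgeR). Klrb1f, which encodes the receptor for the Clec2i protein, fell at its ends and did not pass in distal regions (-0.16 ± 0.08, adjusted p = 0.118). The excluded gene Clec9a, which lies in the larger cluster, went from 56.3 ± 1.80 to 80.9 ± 7.51 CPM in distal regions (0.52 ± 0.06, adjusted p = 9.49e-10).

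Marker lists were used to check the labelled cell type and to read other cells beside the members. Over all genes tested, 6.71% rose and 24.6% fell at gene ends, and 18.3% rose and 11.4% fell in distal regions. Of 10 cDC1 markers, 9 had a gene-end region, which summed to 338.8 to 367.4 CPM at day 7 and 333.7 to 366.4 CPM at day 21, and Itgae had none. At their ends 1 rose (Wdfy4) and 1 fell (Irf8), and 5 of 8 rose in distal regions. Of 11 macrophage and monocyte markers, 4 rose at their ends and the other 7 did not pass, and the sums went from 77.3 to 81.0 CPM at day 7 to 85.0 to 97.0 CPM at day 21. The C1qc gene of that list went from 3.53 ± 0.388 to 7.63 ± 1.61 CPM (SD, n = 4). In distal regions 3 of the 11 rose, 1 fell and 7 did not pass, with sums of 292.7 to 344.5 CPM at day 7 and 332.1 to 338.4 CPM at day 21. Among the myeloid receptors of the Clec set, Clec5a fell in both measures and Clec4a4 fell at its end. Clec4n, Clec7a, Clec4a1 and Clec12a fell in distal regions, whereas Clec12b rose there. Clec4e, Clec4d, Clec10a, Clec1b, Clec4f, Clec4a2, Clec4a3 and Clec4b1 passed in neither measure. The part of macrophages and monocytes in the members' values was not tested. The T and NK cell list, which bears on the Clec2 to Nkrp1 pairs, had 1 gene that rose and 2 that fell of 7 tested at ends, with sums of 47.6 to 57.3 CPM at day 7 and 47.5 to 56.6 CPM at day 21. Its gene Ncr1 had no gene-end region. In distal regions 2 of 8 fell and the other 6 did not pass, with sums of 196.6 to 220.8 and 179.6 to 198.2 CPM, and the part of such cells in the lower Clec2 values was not tested. In the cDC2 list all 6 genes had a gene-end region and none passed there, while 2 of 5 rose and 1 fell in distal regions. Of the pDC markers tested at ends 1 rose and 2 fell, of the melanoma markers 1 of 4 rose and 1 fell, and of the stromal markers 1 of 3 fell. The neutrophil and B cell lists had 3 and 4 genes tested at ends, none of which passed, and S100a8, Pax5, Tyr and Col3a1 had no gene-end region. The platelet list, which bears on Clec1b, had 1 of 3 higher at ends (Pf4), and Gp1ba and Ppbp had no gene-end region. ATAC-seq of sorted cells cannot tell fewer cells of a type from less open chromatin per cell.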

How the data were processed

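ATAC-seq was done on sorted intratumoral cDC1s, per the labels' protocols. The authors deposited whole-number counts per region, not normalized, in 1 table with 1 column per library. The submitters' processing notes name MACS2 2.1.0.20150603, bedtools, SAMtools, Picard 1.65 and cutadapt 1.9, and as builds GRCm38 and mm10. Not given in the sources used here are the aligner, the read filters, the merging of peaks, any transposase shift and whether reads or insertions were counted. A shift would move a count by a few bases. Coordinates are as deposited, and the files do not say whether they count from 0 or 1.

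Gene ends came from RefSeq GRCm38.p6. Counts were fitted with edgeR 4.0.16 (R 4.3.3): TMM factors from the region table (0.9781 to 1.014), filterByExpr, and the quasi-likelihood test of day over all 8 libraries, with Benjamini-Hochberg adjustment over all 121955 regions, 13569 gene-end sums or 14488 distal sums, threshold 0.05. Standard errors were the log2 difference divided by the square root of F. CPM used TMM-adjusted totals.

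On simulated counts, the gene-end fit recovered 48% of genes changed 1.5-fold and 95% changed 2-fold, the distal fit 59% and 92%, and the region fit 15% and 72%. The simulation changed only a small set of features and gave all features the same spread. Far more features were called in the data, so these rates do not measure the power of the tests here. Alternatives were other scaling (DESeq2 1.42.0 size factors, trended offsets), no filter, DESeq2, limma-voom (limma 3.58.1), a replicate block, leaving out each library, and other windows. Members and lists were chosen with earlier results of these data known. All members are accounted for. Per-library values are given for members that passed and for 14 set receptors, and in each cluster for the 2 most open regions and up to 3 regions in each direction, ranked by p. Promoters were printed for 4 members, taken by p at gene ends, and for 1 with no region.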

Additional observations from a re-analysis of the deposited data

Results flagged for a closer look

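Of 102 groups of 4 libraries examined, 4 had a library that stood apart from the other 3 by Dixon's criterion, where chance gives about 1 in 20. At the Clec4b1 gene end, day 21 replicate 1 was highest at 11.5 CPM, with the others at 9.5 to 9.69. In the distal region of Clec4e, day 7 replicate 3 was highest at 2.36 CPM, against 1.16 to 1.37. At the ends of Clec1a, day 7 replicate 2 was lowest at 2.23 CPM, against 2.92 to 2.99. In the distal regions of Clec7a, day 21 replicate 2 was lowest at 2.53 CPM, against 3.63 to 3.77.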

How the results depend on the processing

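No call of a member reversed under any alternative run. Of 29 named results that passed the test, 16 passed in every alternative and 13 were lost in at least 1. The count of members higher at their ends, 2, ranged from 0 to 2 with a library left out: it was 0 without day 7 replicate 3, and 1 without day 21 replicate 2 or replicate 4. The count lower at ends, 6, ranged from 4 to 6 with a library left out, and was 3 with the transcription start end only, which tests fewer genes and regions. In distal regions the 2 higher ranged from 1 to 2 (1 without day 7 replicate 3) and the 10 lower from 8 to 10. Single regions higher, 7, ranged from 4 to 7 (4 without day 21 replicate 4), and lower, 29, from 24 to 33. Where not stated, the cause was not tested. The replicate block left the counts at 2 and 6, 2 and 10, and 7 and 29, and changed none of the 50 named results' calls. Same-numbered libraries of the 2 days did not deviate together (correlation of deviations 0.005 to 0.012 over 4 pairs), and not every library correlated best with its own number, so the numbers were not used as pairs. Day 7 totals were lower than most of day 21, and regions under about 1 CPM rest on few counts.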
